A study of Mus musculus with 25 samples.

Results

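The 10 cadherin genes Cdh1, Cdh2, Cdh3, Cdh4, Cdh5, Cdh6, Cdh11, Cdh13, Cdh15 and Cdh19 were chosen by symbol, as 10 of the 55385 genes in the counts, and were described across 5 murine melanoma lines. RNA-seq covered 25 libraries of cultured cells, with 5 biological replicates of each line, taken untreated at a confluency of 50%. The study set the lines with high or intermediate efficiency of liver colonisation in mice (WT31, B16F10 luc2 and RET, together HIM-melanoma) against those with low efficiency (D4M and HCmel12, LM-melanoma). Each line is a single line, so replicates are cultures of it and p-values measure the spread between cultures, not between tumours or animals.

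WT31 came from mice with the genotype Tyr::NrasQ61K/°; INK4a-/-, in which the tyrosinase promoter drives mutant Nras in pigment cells. B16F10 luc2 was purchased, carries a luciferase, and is listed by the study with mutations of many genes, Trp53 among them. The RET line was made from transgenic mice that express human RET from the mouse metallothionein promoter. D4M goes back to mice that carry Tyr::CreER and BrafCA among their alleles, in which an inducible Cre under the tyrosinase promoter alters Braf. The genetic background of HCmel12, a line of primary tumour origin, is HGF-CDK4(R24C). WT31, B16F10 luc2 and RET shared one medium (RPMI with serum), HCmel12 had RPMI with further supplements, and D4M had Advanced DMEM with less serum, so that medium and line cannot be told apart in any comparison with D4M or HCmel12.

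Classical cadherins are transmembrane proteins that bind a cadherin on the neighbouring cell in the presence of calcium and hold the actin cytoskeleton through catenins. Melanocytes of normal skin attach to keratinocytes mainly through E-cadherin (Cdh1), and a shift from E-cadherin to N-cadherin (Cdh2) is a known feature of many melanomas. The remaining members are known mostly from other tissues: P-cadherin (Cdh3) from epithelia, R-cadherin (Cdh4) from retina and brain, VE-cadherin (Cdh5) from endothelium, M-cadherin (Cdh15) from muscle, Cdh6 from kidney and neural crest, Cdh11 from mesenchyme, Cdh19 from Schwann cell precursors, and T-cadherin (Cdh13), which has a lipid anchor in place of the transmembrane and cytoplasmic parts, from vessels and heart.

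Library totals were between 24199083 and 25843286 counts, and levels are given as CPM, counts per 1000000 after scaling with TMM factors. The detection limit was set at 3 counts in a library, which corresponded to between 0.111 and 0.138 CPM depending on the library and covers counting error only. The filter on low counts kept 8 of the 10 cadherins among 15247 tested genes, and Cdh4 and Cdh5 were not tested. A member could pass through the line where it was high, so that the count of members that differed between lines is a description. The labelled cell type was checked with 10 melanocyte lineage markers, whose summed level was at least 12373 CPM in every library of WT31, B16F10 luc2, RET and HCmel12, but between 26.7 and 82.4 CPM in D4M. In D4M, 8 of the 10 markers exceeded 3 counts in at least 1 library. Sox10, a transcription factor of the lineage, was at 0.552 ± 0.872 CPM there (SD, n = 5). In D4M replicate 2 the markers summed to 27.7 CPM, while Sox10, Tyrp1, Dct, Pmel, Mlana and Tyr were each at most at 0.267 CPM. Most of that sum thus came from the remaining markers, Mitf, Pax3, Kit and Ednrb. Replicate 1 of D4M stood apart in these markers: they summed to 82.4 CPM there and to between 26.7 and 32.4 CPM in the other 4 libraries. It had the most Sox10 (2.07 CPM), Tyrp1 (27 CPM), Dct (10.7 CPM) and Pmel (8.78 CPM) of the line, and also the most Cdh1 and Cdh19. Without it, Sox10 in D4M was at 0.172 ± 0.233 CPM (SD, n = 4). Of the 10 markers 3, the melanosome genes Tyr, Mlana and Pmel, were higher in all 6 contrasts of HIM-melanoma with LM-melanoma, as were 6.53% of all genes tested. Between RET and HCmel12, 3 of the 10 were higher in RET and 5 lower, where 34% and 33.3% of all genes tested were. Tyrp1 was at 8344 ± 898 CPM in HCmel12 and 3767 ± 963 CPM in WT31. Tyr was at 3982 ± 403 CPM in WT31 and 12.5 ± 9.88 CPM in HCmel12. Replicate 4 of HCmel12 also stood apart in the lineage markers, which summed to 18049 CPM there and to between 12373 and 13560 CPM in the other 4 libraries. It had the most Tyr (30.1 CPM, against 6.31 to 9.13 CPM), Dct (5048 CPM, against 2348 to 2601 CPM) and Pmel (1160 CPM, against 571 to 822 CPM) of the line, and without it Tyr was at 8.09 ± 1.23 CPM (SD, n = 4). Fibroblast markers summed to between 714 and 1395 CPM in D4M, with 8 of 9 above 3 counts and the collagens Col3a1 (472 ± 177 CPM) and Col1a2 (354 ± 60.8 CPM) as the most abundant, and to at most 102 CPM in any other library. The part of these differences in the cadherin levels of D4M was not tested. Leaving out replicate 1 of D4M changed no call of Cdh1 or Cdh19 against D4M. Markers of keratinocytes and other epithelia, which express Cdh1 and Cdh3, summed to at most 5.54 CPM in any library. Of 12 such markers 1 exceeded 3 counts in RET, namely Perp at 4.05 ± 1.23 CPM, and 3 did so in D4M and in HCmel12, among them Cldn1 at 0.257 ± 0.0982 and 0.137 ± 0.0927 CPM. Immune cell markers summed to at most 15.99 CPM in any library, with Cd68 highest in D4M (8.01 ± 5.15 CPM) and Lyz2 in WT31 (8.13 ± 3.27 CPM).

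**Figure D1:**
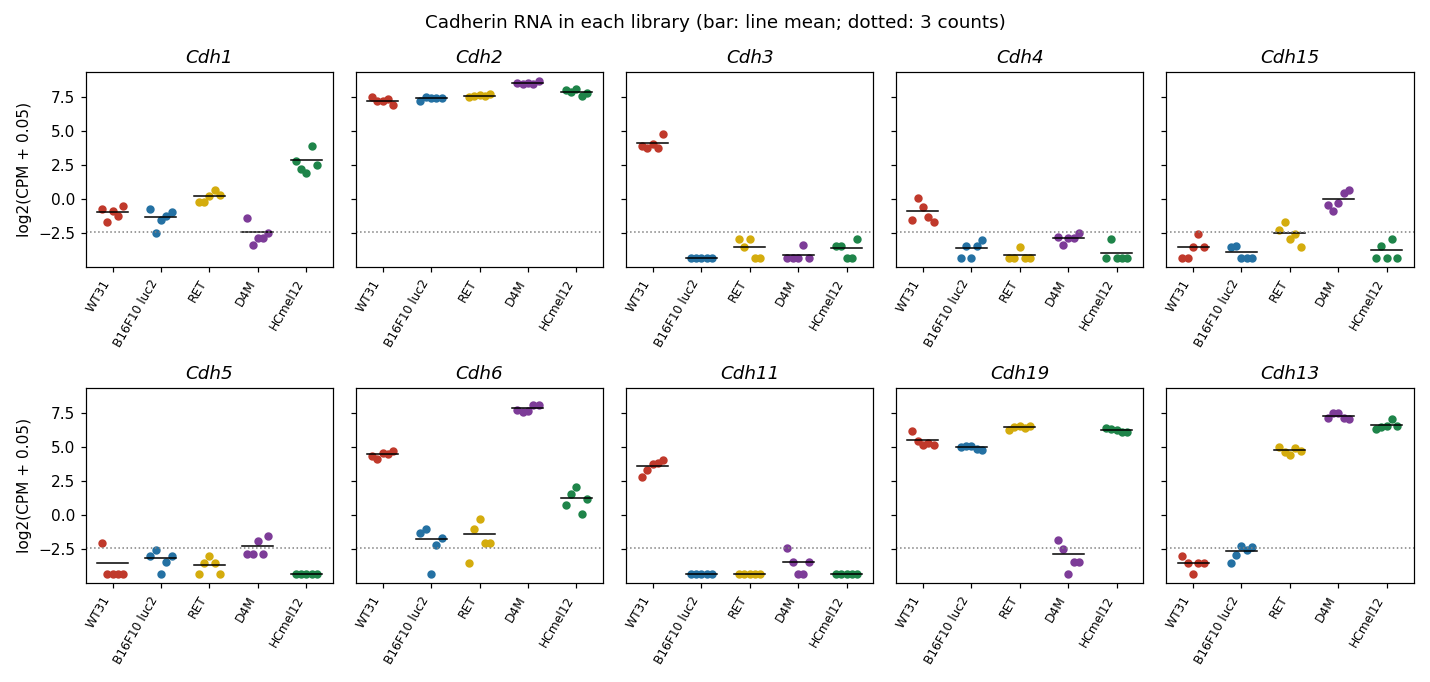
RNA level of each of the 10 cadherins, as log2 of CPM with a pseudocount of 0.05 (vertical axis, log scale), in the 5 libraries of each line (points) with the line mean (bar); the dotted line marks 3 counts. Cdh2 is high in all 25 libraries, Cdh3 and Cdh11 are above the dotted line in WT31 with 1 library of D4M at it for Cdh11, and Cdh19 falls to the dotted line in D4M.

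All 8 tested cadherins differed between the lines (limma's moderated F test over the 5 line means, adjusted p at most 9.8e-09), as did 96.9% of all genes tested. Cdh2 was the most abundant member in each line, and the members beside it differed between lines, with the same main ones in RET and HCmel12. WT31 added Cdh3, Cdh6, Cdh11 and Cdh19, B16F10 luc2 added Cdh19, RET added Cdh13 and Cdh19, D4M added Cdh6 and Cdh13 and had almost no Cdh19, and HCmel12 added Cdh13 and Cdh19 together with the highest level of Cdh1. No cadherin was higher in all 3 lines of HIM-melanoma than in both lines of LM-melanoma, where 6.53% of all genes tested were. Cdh2 and Cdh13 were lower in all 6 contrasts of this kind, as 2 of 8 tested cadherins, where 6.4% of all genes tested were lower. With a limit of at least 1 on the absolute log2 fold change, Cdh13 alone met this rule.

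Cdh1, which encodes E-cadherin (chr8:106603351-106670246 in GRCm38, plus strand), was highest in HCmel12, where it was still a minor part of the cadherin RNA, and lower in the other lines. Its 5 libraries of HCmel12 had 6.94, 4.70, 3.81, 15.2 and 5.65 CPM, or 7.26 ± 4.58 CPM (SD, n = 5). RET had 0.830, 0.817, 1.14, 1.56 and 1.16 CPM, which came from 21 to 39 counts. WT31 had between 7 and 18 counts per library (0.478 ± 0.156 CPM), B16F10 luc2 between 3 and 14 (0.360 ± 0.165 CPM) and D4M between 1 and 7.43 (0.138 ± 0.117 CPM). The highest of these counts was that of D4M replicate 1, without which the line was at 0.0875 ± 0.0341 CPM (SD, n = 4). HCmel12 was above all libraries of all other lines, RET was above those of WT31, B16F10 luc2 and D4M, and the ranges of those last lines overlapped. The log2 fold change of RET against HCmel12 was -2.56 ± 0.36 (SE, limma, adjusted p = 5.7e-07), and of D4M against HCmel12 -5.57 ± 0.59 (adjusted p = 3.1e-09). One library of HCmel12, replicate 4, stood apart, the same library as in the lineage markers, whose part in this was not tested. Without it the line had 5.28 ± 1.34 CPM (SD, n = 4), and the fold change of RET against HCmel12 was -2.25 ± 0.25 on the log2 scale (limma, adjusted p = 2e-08).

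The lower end of the Cdh1 order was less certain. RET was higher than B16F10 luc2 (log2 fold change of B16F10 luc2 against RET -1.65 ± 0.54, limma, adjusted p = 0.013) and higher than D4M (3.01 ± 0.65, adjusted p = 0.00015). The difference of WT31 from RET, at -1.19 ± 0.51, passed the threshold with an adjusted p of 0.039 in limma, and was lost when any of 6 single libraries was left out, of which leaving out WT31 replicate 2 gave the highest adjusted p, 0.097 (range over the 25 libraries left out 0.0033 to 0.097). It was also lost with no filter on low counts (limma, adjusted p = 0.055). WT31 and D4M differed by 1.82 ± 0.69 (limma, adjusted p = 0.02), with overlapping libraries, and without D4M replicate 2 the adjusted p was 0.059 (range over the libraries left out 0.0012 to 0.059). With log2(TPM + 1) in place of counts, which compresses low levels, RET did not pass against WT31 (adjusted p = 0.13) or B16F10 luc2 (0.09), nor WT31 against D4M (0.23). That fit held 4 libraries of D4M, without replicate 1, and with counts of the same 24 libraries WT31 and D4M passed (limma, adjusted p = 0.013). Neither WT31 and B16F10 luc2 (0.46 ± 0.60, limma, adjusted p = 0.51) nor B16F10 luc2 and D4M (1.36 ± 0.72, adjusted p = 0.086) passed the threshold. The latter pair did pass with edgeR (adjusted p = 0.032), with DESeq2 (adjusted p = 0.014) and with the replicate block (limma, adjusted p = 0.0067), over a range of 0.0067 to 0.4 for all alternatives with every library kept. It also passed without B16F10 luc2 replicate 2 (limma, adjusted p = 0.039) and without HCmel12 replicate 4 (0.015), over a range of 0.015 to 0.19 with 1 library left out.

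Cdh2, which encodes N-cadherin (chr18:16588877-16809246, minus strand), was abundant in all 25 libraries, at between 119 and 415 CPM. In D4M it had 366, 361, 363, 348 and 415 CPM, all above every other library. HCmel12 followed with 264, 235, 276, 193 and 223 CPM. RET had 178, 187, 203, 189 and 206 CPM. These 3 lines thus stood in this order, with replicate 4 of HCmel12 inside the range of RET. B16F10 luc2 had 148, 181, 173, 170 and 171 CPM and WT31 had 178, 148, 147, 162 and 119 CPM, with overlapping ranges. D4M exceeded WT31 by 1.31 ± 0.09 on the log2 scale and HCmel12 by 0.65 ± 0.09 (limma, adjusted p = 7.8e-13 and 4.2e-07). HCmel12 exceeded RET by 0.30 ± 0.09 (limma, adjusted p = 0.0058), the smallest difference that passed among the Cdh2 pairs. WT31 against B16F10 luc2 (-0.17 ± 0.09, limma, adjusted p = 0.096) and B16F10 luc2 against RET (-0.19 ± 0.09, adjusted p = 0.079) did not pass. The latter passed with library size only (limma, adjusted p = 0.031), with only these 2 lines fitted (0.007), without WT31 replicate 5 (0.045) and without HCmel12 replicate 4 (0.046), over a range of 0.007 to 0.18 with every library kept and 0.045 to 0.2 with 1 left out. The former passed without WT31 replicate 1 (limma, adjusted p = 0.026) and without B16F10 luc2 replicate 1 (0.048), over a range of 0.026 to 0.37 with 1 library left out and 0.096 to 0.75 with every library kept. Of the 3 pairs within HIM-melanoma, WT31 against RET passed (-0.36 ± 0.09, limma, adjusted p = 0.00088), but not with log2(TPM + 1) (adjusted p = 0.064). An antisense gene, Gm15485, overlaps Cdh2, and whether the reads were counted by strand is not given in the sources used here.

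Since Cdh1 and Cdh2 are usually read together, their counts were divided within each library, a ratio that does not depend on scaling between libraries. The log2 ratio of Cdh2 to Cdh1 counts was 5.25, 5.64, 6.17, 3.66 and 5.30 in HCmel12 and 9.97, 12.4, 11.7, 11.6 and 11.4 in D4M. HCmel12 had the lowest mean, 5.2 ± 0.94 (SD, n = 5), followed by RET with 7.47 ± 0.35, WT31 with 8.30 ± 0.59 and B16F10 luc2 with 8.93 ± 0.86, and D4M had the highest, 11.42 ± 0.89. In 4 of the 5 libraries of D4M Cdh1 had at most 3 counts, so that their ratios depend on the 0.5 added to each count and the size of the D4M mean is uncertain. The LM-melanoma lines thus held both ends of the range, with HIM-melanoma between them. D4M and HCmel12 differed by 6.22 on the log2 scale (exact two-sided permutation test, 252 arrangements, p = 0.0079, the smallest this design can give, and 0.0113 after adjustment over 10 pairs). With 3 added to each count this difference was 5.325 (adjusted exact permutation p = 0.0099). Of the 10 pairs, 9 had an adjusted p under 0.05. WT31 and B16F10 luc2 did not pass (exact permutation p = 0.2381), and WT31 and RET passed narrowly (difference 0.83, adjusted exact p = 0.0441). This last call was lost when any of 9 libraries was left out, with a difference between 0.65 and 1.045 and an adjusted p between 0.0113 and 0.0882.

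**Figure D2:**
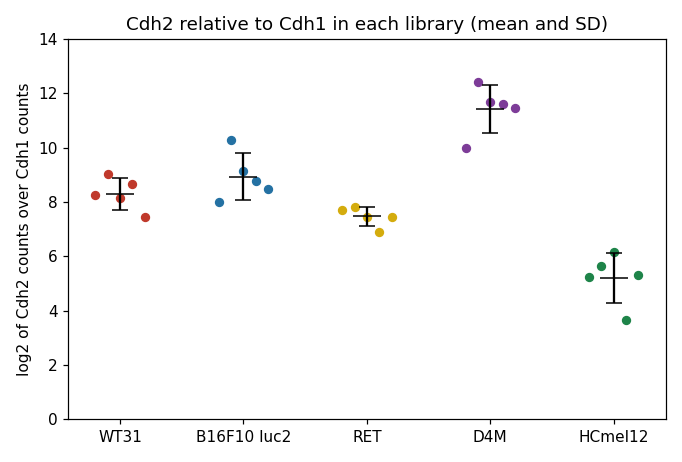
Log2 of Cdh2 counts over Cdh1 counts (vertical axis) in each of the 25 libraries by line, with the mean and SD of 5 libraries in black. HCmel12 lies between 3.66 and 6.17 and D4M between 9.97 and 12.4, and the other lines lie between 6.91 and 10.3.

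Cdh3, which encodes P-cadherin (chr8:106510891-106557297, plus strand), was found in WT31, with 14.6, 13.3, 16.6, 13.5 and 27.0 CPM from 350 to 731 counts per library. None of the other 20 libraries had more than 2 counts, and B16F10 luc2 had 0 counts in all 5. Against 3 counts per library, the mean of WT31 was at least 128-fold higher than D4M and at least 140-fold higher than B16F10 luc2. Cdh3 and Cdh1 are neighbours on the same strand, 46053 bases apart with 2 other annotated genes between them. They were highest in different lines: Cdh3 was highest in WT31, where Cdh1 was detected with 7 to 18 counts, and Cdh1 was highest in HCmel12, where Cdh3 had at most 2.

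Cdh11, a cadherin of mesenchymal cells (chr8:102632095-102785642, minus strand), was likewise seen in WT31, at 6.91, 10.1, 13.7, 14.7 and 16.5 CPM. It had 0 counts in every library of B16F10 luc2, RET and HCmel12 and at most 3.0015 estimated counts in D4M, treated here as 3. The mean of WT31 was at least 92.9-fold higher than D4M, and at least 102-fold higher than B16F10 luc2. Of the 31-base sequences of its transcripts, 4.78% also occur in transcripts of other genes, against at most 0.46% for the other members. In D4M, where the fibroblast markers were highest, Cdh11 was at or under 3 counts. Across the 25 libraries Cdh3 and Cdh11 had the highest correlation of any pair of tested members (Pearson's r of log2 CPM 0.944), a description of 5 libraries of WT31 against 20 at or near 0 counts.

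Cdh4, which encodes R-cadherin (chr2:179442431-179899373, plus strand), was also highest in WT31, where the libraries had 8, 26, 16, 9 and 7 counts (0.503 ± 0.305 CPM). No other library had more than 3. It did not pass the filter and was not tested. All WT31 libraries lay above all others.

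Cdh6 (chr15:13028701-13173675, minus strand), a cadherin of kidney epithelium and of neural crest cells, was abundant in D4M, lower in WT31 and low in the other lines. D4M had 213, 194.9, 206, 283 and 283 CPM. WT31 had 21, 17.8, 23.8, 23.3 and 26.8 CPM. HCmel12 had 1.6, 2.91, 4.26, 1.05 and 2.24 CPM. These 3 lines did not overlap in any library. B16F10 luc2 (0 to 11 counts, 0.251 ± 0.176 CPM) and RET (1 to 20 counts, 0.333 ± 0.293 CPM) were near the limit set at 3 counts and overlapped. D4M exceeded WT31 by 3.38 ± 0.16 on the log2 scale (limma, adjusted p = 2.8e-16) and HCmel12 by 6.74 ± 0.33 (adjusted p = 5.1e-16). WT31 exceeded HCmel12 by 3.36 ± 0.34 (limma, adjusted p = 2e-09). HCmel12 exceeded RET by 3.10 ± 0.67 (limma, adjusted p = 0.00022), while B16F10 luc2 and RET differed by -0.47 ± 0.87 (adjusted p = 0.69), a difference whose sign turned when B16F10 luc2 replicate 3 was left out (0.31).

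Cdh15, which encodes M-cadherin (chr8:122847966-122867397, plus strand), was, like Cdh6, highest in D4M, but at a level far lower. D4M had 15, 11, 17, 30 and 37 counts (0.969 ± 0.462 CPM), RET between 1 and 7, and the other lines at most 3. D4M was above all other libraries and exceeded RET by 2.79 ± 0.46 on the log2 scale (limma, adjusted p = 4.4e-06). Against 3 counts per library, D4M was at least 8.49-fold higher than WT31. RET also passed the threshold against WT31 (limma, adjusted p = 0.023), B16F10 luc2 (0.0076) and HCmel12 (0.0089), on a sum of 17 counts with overlapping libraries. The call against WT31 was lost without WT31 replicate 1 (limma, adjusted p = 0.072), without WT31 replicate 2 (0.072) and without RET replicate 2 (0.067), over a range of 0.0081 to 0.072. It was lost as well with DESeq2 (adjusted p = 0.056) and with no filter on low counts (limma, adjusted p = 0.06). None of the 3 calls of RET passed with log2(TPM + 1), where the adjusted p was between 0.34 and 0.42. Of the muscle markers, the regulators Myod1, Myog, Myf5 and Myf6 had 0 CPM in all lines. The summed level of 8 muscle markers was highest in D4M, between 105 and 209 CPM, of which Chrna1, a subunit of the muscle acetylcholine receptor, made up 160 ± 38.7 CPM, while Des, a filament protein of muscle, was at 0.0356 ± 0.0372 CPM in D4M and highest in B16F10 luc2 (26.2 ± 4.23 CPM).

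Of the 10 members, Cdh6 and Cdh15 had an entry in the RefSeq promoter table (GRCm38.p6), and both were highest in D4M. The sequence before Cdh6 is shown because Cdh6 was a main cadherin of D4M, and because Snai and Zeb factors, which differed between the lines as described further on, are known to bind E-boxes, CANNTG, and prefer CAGGTG or its reverse CACCTG. The 250 bases before its start (chr15:13173676-13173925, minus strand, printed 5′ to 3′) follow, with the E-box in capitals.
Cdh6: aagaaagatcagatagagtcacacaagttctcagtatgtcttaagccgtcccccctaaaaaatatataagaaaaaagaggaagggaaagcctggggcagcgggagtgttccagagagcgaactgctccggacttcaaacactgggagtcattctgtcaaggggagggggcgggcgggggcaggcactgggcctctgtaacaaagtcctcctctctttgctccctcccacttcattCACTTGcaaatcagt
Its single E-box, CACTTG, begins 15 bases before the start. The window of Cdh15 (chr8:122848124-122848373, plus strand) held 3 E-boxes, of which CATATG began 236 bases, CATGTG 135 bases and CACGTG 32 bases before the RefSeq start. In GENCODE vM21, Cdh15 starts further upstream, so that this whole window lies inside the annotated gene. Neither window held CAGGTG or CACCTG. Of 32851 promoter windows of the same length, 66.2% held CANNTG and 17.2% held CAGGTG or CACCTG, with both strands searched and CAGGTG being itself a form of CANNTG. A match describes letters and is not a binding site.

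Cdh19 (chr1:110888326-110977584, minus strand), known from Schwann cell precursors, was abundant in 4 lines and close to absent in D4M. RET had 77.3, 90.0, 95.5, 87.7 and 95.8 CPM and HCmel12 had 83.8, 81.6, 75.9, 68.7 and 69.2 CPM. WT31 had 73.1, 44.7, 36.7, 38.9 and 35.7 CPM. B16F10 luc2 had 33.0, 34.4, 34.3, 29.0 and 28.3 CPM. RET and HCmel12 overlapped, WT31 lay below them except for its replicate 1, which was inside the range of HCmel12, and B16F10 luc2 lay below all libraries of WT31. D4M had 5, 3, 0, 1 and 1 counts (0.0900 ± 0.0920 CPM), or 0.0551 ± 0.0561 CPM (SD, n = 4) without replicate 1, which had the highest of these counts. The log2 fold change of WT31 against D4M was 9.07 ± 0.69 (limma, adjusted p = 5.8e-12), and of B16F10 luc2 against D4M 8.60 ± 0.70 (adjusted p = 1.5e-11). Without D4M replicate 1 these fold changes were 9.46 and 8.98. Their size is uncertain, since no other library of D4M had more than 3 counts. WT31 exceeded B16F10 luc2 by 0.48 ± 0.14 (limma, adjusted p = 0.004), and without WT31 replicate 1 by 0.29. RET exceeded WT31 by 1.014 ± 0.13 (limma, adjusted p = 1.1e-07), and RET and HCmel12 did not pass (0.23 ± 0.13, adjusted p = 0.098), although they did with only these 2 lines fitted (limma, adjusted p = 0.017, range with every library kept 0.017 to 0.2) and without WT31 replicate 1 (adjusted p = 0.014, range over the 25 libraries left out 0.014 to 0.19). Schwann cell markers moved with Cdh19 in part: their summed level was between 31.1 and 44.4 CPM in D4M, but between 123 and 135 CPM in B16F10 luc2 and at least 756 CPM in WT31, RET and HCmel12. Of these 9 markers 1, the calcium-binding protein S100b, was higher in all 6 contrasts of HIM-melanoma with LM-melanoma, as were 6.53% of all genes tested. It was at 9.89 ± 2.25 CPM in D4M and 0.703 ± 0.562 CPM in HCmel12, where Cdh19 was high. Against HCmel12, 7 of the 9 were lower in RET and 2 higher, where 33.3% and 34% of all genes tested were. In B16F10 luc2, 7 were lower than in HCmel12 and 1 was higher, where 33.8% and 35.3% of all genes tested were. The part of the Schwann cell markers in the Cdh19 result was not tested.

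Cdh13 (chr8:118283733-119324921, plus strand), which encodes the lipid-anchored T-cadherin, split the lines into those with and those without it. D4M had 146, 182, 187, 139 and 132 CPM and HCmel12 had 80.9, 92.3, 94.8, 137 and 93.1 CPM. RET had 32, 25.5, 21.3, 30.2 and 27.2 CPM. WT31 had at most 2 counts and B16F10 luc2 at most 4 in any library. Every library of LM-melanoma was thus above every library of HIM-melanoma, with replicate 4 of HCmel12 reaching into the range of D4M. D4M exceeded HCmel12 by 0.67 ± 0.11 on the log2 scale (limma, adjusted p = 7.6e-06), and by 0.79 ± 0.09 without replicate 4 of HCmel12. HCmel12 exceeded RET by 1.86 ± 0.13 (limma, adjusted p = 1.1e-12). The mean of RET was at least 239-fold higher than WT31, and that of D4M at least 1376-fold higher than WT31. Within HIM-melanoma, the differences of RET from WT31 and from B16F10 luc2 (-7.77 ± 0.58 for B16F10 luc2 against RET, limma, adjusted p = 2.3e-11) were thus larger than that between RET and HCmel12. The size of the difference from B16F10 luc2 is uncertain, since that line had at most 4 counts. Cdh13 is annotated over 1041189 bases and overlaps 5 other genes, of which Gm45720 and Gm45721 are antisense.

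Cdh5, which encodes VE-cadherin of endothelial cells (chr8:104101625-104144511, plus strand), was at or close to 0 in all lines. D4M had 2, 2, 5, 2 and 7 counts, WT31 had 5 counts in replicate 1 and 0 in the others, HCmel12 had 0 counts throughout, and B16F10 luc2 and RET had at most 3. It did not pass the filter. The summed level of 12 other endothelial markers was between 172 and 223 CPM in D4M, almost all of it from Flt1 (200 ± 20.8 CPM), a receptor of vascular endothelial growth factor, and in HCmel12 between 26.3 and 39.7 CPM, mostly from the related receptor Kdr (31 ± 5.71 CPM). The junction gene Cldn5 and the endothelial transcription factor Erg were at most 0.0305 and 0.0627 CPM in any line mean.

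**Figure D3:**
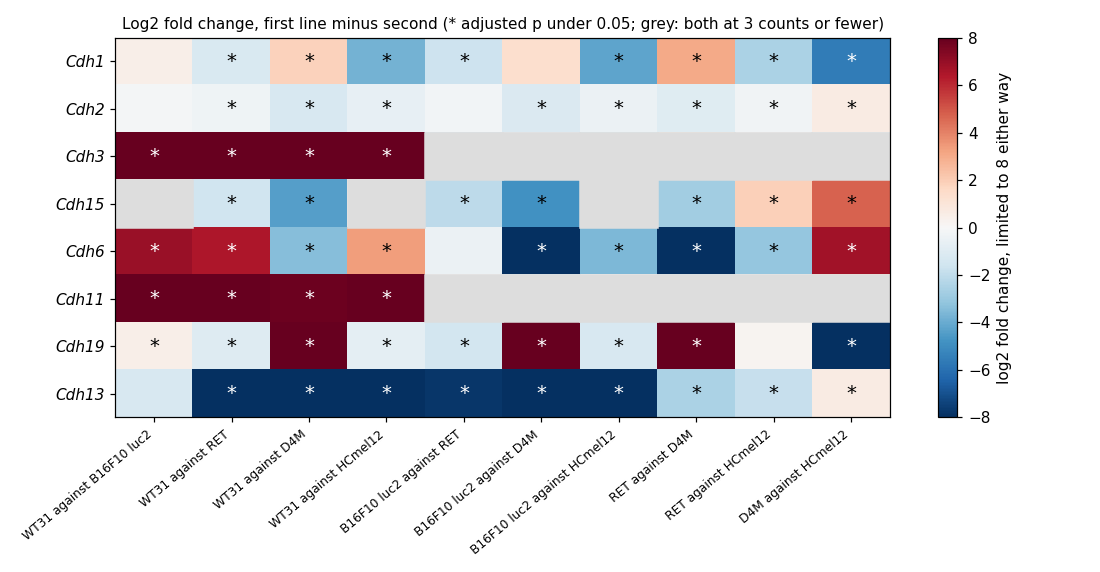
Log2 fold change of each tested cadherin (rows) in each of the 10 pairs of lines (columns), as the level in the line named before "against" minus that in the line after it, with colours limited to 8 either way; stars mark an adjusted p under 0.05 (limma), and grey marks pairs in which both lines had at most 3 counts in every library. Cdh3 and Cdh11 are starred in the 4 pairs with WT31, and Cdh19 reaches the limit of the colours in its 4 pairs with D4M.

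Counted over pairs of lines, WT31 differed from RET and from D4M in 8 of 8 tested cadherins, where 73.2% and 76.1% of all genes tested were called, and from HCmel12 in 7 (70.4%). It differed from B16F10 luc2 in 4 (72.8%), namely Cdh3, Cdh6, Cdh11 and Cdh19, each of them higher in WT31. B16F10 luc2 differed from RET in 4 (51.5%), Cdh1, Cdh13, Cdh15 and Cdh19, each higher in RET, from D4M in 5 (77.7%) and from HCmel12 in 5 (69.1%). RET differed from D4M in 6 (77.1%) and from HCmel12 in 5 (67.2%), and D4M differed from HCmel12 in 6 (72.5%). With 8 members, these shares were on both sides of the background. The median absolute log2 fold change of the members was largest for WT31 against D4M, at 6.13, and smallest for WT31 against B16F10 luc2, at 0.88. Both medians rest on members with at most 3 counts in every library of a line, so that their size is uncertain.

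Levels of different cadherins were compared by TPM, which takes transcript length into account, in the 24 libraries with TPM. The 10 members summed to 228 ± 14.6 TPM in D4M (SD, n = 4), 159 ± 9.75 in HCmel12 (n = 5), 115 ± 7.30 in RET, 92.4 ± 12.1 in WT31 and 72.1 ± 4.88 in B16F10 luc2. Cdh2 made up the largest share of this sum in every line, with a mean share between 51.5% in HCmel12 and 82.3% in B16F10 luc2. By counts without regard to length, its share in D4M was 48.5%, or 47.98% over the 4 libraries with TPM, and the lowest share by TPM was 40.9% in 1 library of HCmel12. The next member differed by line. In WT31 it was Cdh19 with 21.2 ± 4.03%, followed by Cdh3 with 6.95 ± 3.05%, Cdh6 with 4.78 ± 1.10% and Cdh11 with 3.90 ± 1.5%. Cdh19 also came next in B16F10 luc2 (17.1 ± 1.75%) and RET (30.1 ± 1.25%). In D4M and HCmel12 it was Cdh13, with 29.96 ± 5.83% and 28.5 ± 6.65%, followed by Cdh6 in D4M (17.1 ± 3.62%) and by Cdh19 in HCmel12 (18.2 ± 1.69%). Even in HCmel12, Cdh1 made up 1.46 ± 0.89%, and in the other lines at most 0.376%. Without regard to length, Cdh6 took 30.7% of the cadherin counts of D4M, more than Cdh13 with 20.6% (31.05% and 20.8% over the 4 libraries with TPM), and in WT31 9.14%, more than Cdh3, so that the order of these members depends on the unit in both lines.

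**Figure D4:**
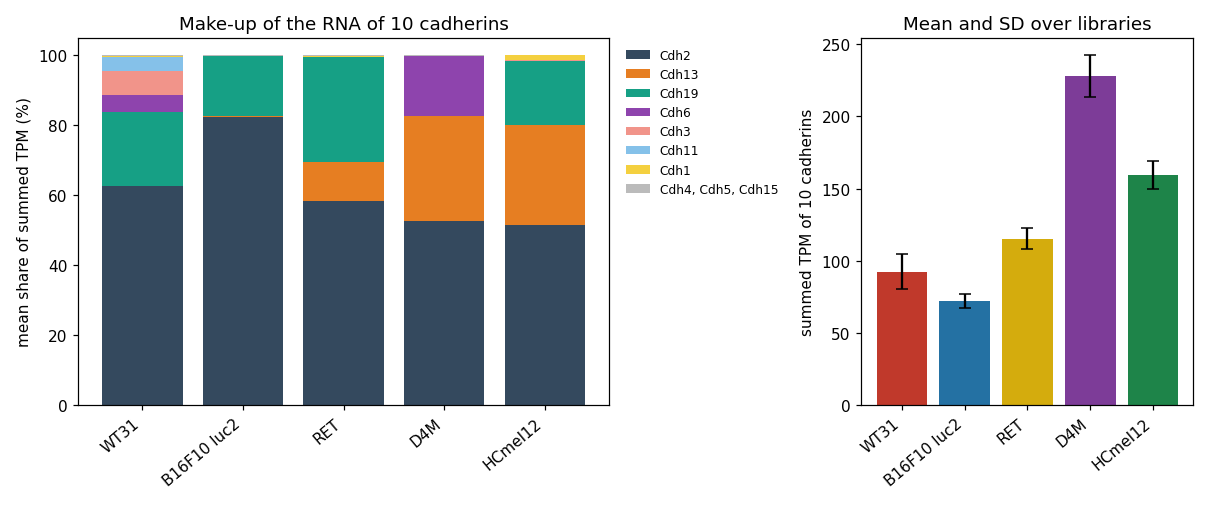
Left, mean share of each cadherin in the summed TPM of the 10 members, in percent, by line; right, the summed TPM itself as mean and SD over 5 libraries (4 for D4M). Cdh2 is the largest part of each bar, from 51.5% to 82.3%, and the sum is highest in D4M at 228 TPM.

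Of 13 further cadherins outside the member list, 7 exceeded 3 counts in at least 1 library and 5 were tested, none of which changed in one direction in all 6 contrasts of HIM-melanoma with LM-melanoma. Cdh10 was at 13.7 ± 0.776 CPM in HCmel12, 3.13 ± 0.877 in B16F10 luc2 and 1.31 ± 0.389 in RET, and had 0 counts in D4M. Cdh24 was highest in WT31 (8.61 ± 2.32 CPM) and lowest in B16F10 luc2 (1.15 ± 0.354 CPM), and 9 of its 10 pairs passed the threshold, with B16F10 luc2 against RET as the exception. Cdh23 and Cdh26, named after their values were seen, were seen in D4M, at 3.30 ± 0.704 and 4.6 ± 2.22 CPM, with at most 0.0159 CPM as the mean of any other line.

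The catenins link classical cadherins to actin. Of 15 catenin and adaptor genes 12 were tested, while Ctnna2, Ctnna3 and Ctnnd2 were at most at 0.371 CPM in any line mean, and 2 of the tested genes, Ctnnal1 and Arvcf, were higher in all 6 contrasts of HIM-melanoma with LM-melanoma, as were 6.53% of all genes tested. With log2(TPM + 1) this count was 3. Ctnnal1, which encodes a protein related to α-catenin, was at 10.1 ± 1.54 CPM in D4M and 25.4 ± 4.97 in HCmel12, against 50.7 ± 14.8, 53.0 ± 6.26 and 78.6 ± 12.3 CPM in WT31, B16F10 luc2 and RET. Arvcf, which encodes a catenin of the p120 family, was at 1.88 ± 0.425 and 3.70 ± 0.539 CPM, against 6.75 ± 1.36, 13.2 ± 1.62 and 6.96 ± 0.367 CPM in the same order of lines. With a limit of at least 1 on the absolute log2 fold change, neither kept this call. The median of the mean log2 fold change over the 6 contrasts was 0.45 for these genes and -0.002 for all genes tested. Between D4M and HCmel12, 10 of 12 were lower in D4M and 2 were higher, where 35.7% and 36.8% of all genes tested were. Of the same 12, 11 were lower in D4M than in WT31, 9 than in RET and 8 than in B16F10 luc2, where 37.5%, 38.8% and 38.8% of all genes tested were. β-catenin (Ctnnb1), named after its values were seen, was at 560 ± 17.3 CPM in D4M and between 1091 and 1271 CPM as a mean of the other lines, and vinculin (Vcl) was at 313 ± 16.2 CPM in D4M and at most 96.0 CPM elsewhere. Nectins, the other adhesion receptors of adherens junctions, included 3 tested genes without a common direction. Nectin3 was at 174 ± 22 CPM in D4M and between 24.4 and 42.0 CPM elsewhere, and Nectin2 was highest in B16F10 luc2 (101 ± 11 CPM).

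**Figure D5:**
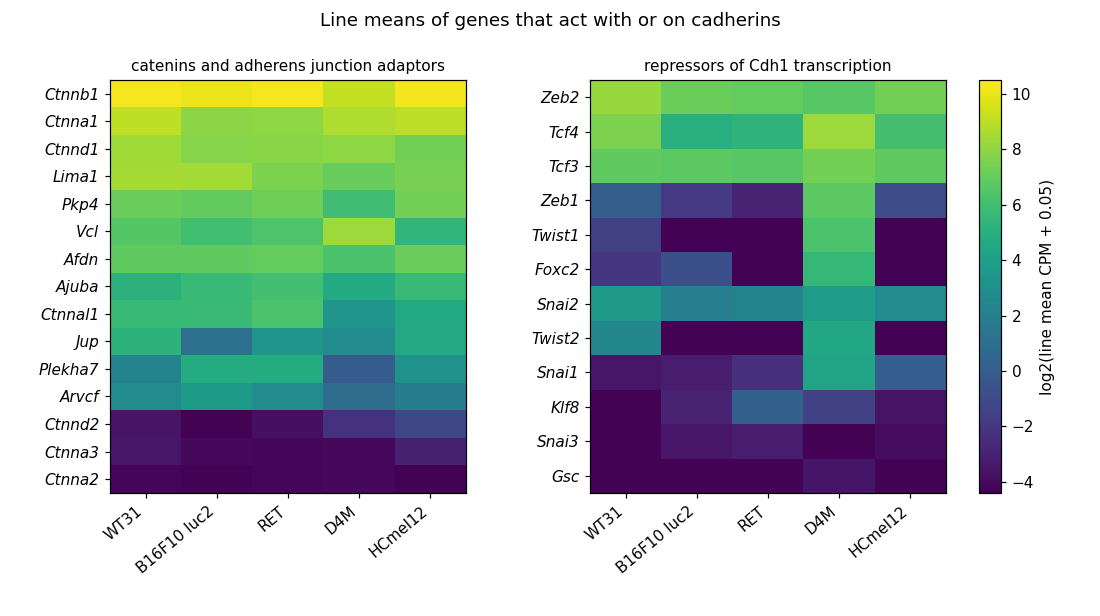
Line means as log2 of CPM with a pseudocount of 0.05 (colour, log scale) for the catenin and adaptor genes (left) and for genes whose products repress Cdh1 (right), ordered by their mean level. Ctnnb1 is the brightest row on the left, and Zeb1, Twist1, Foxc2, Twist2 and Snai1 are brightest in D4M on the right.

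Most transcription factors that repress Cdh1 were higher in D4M, the line with the lowest mean of Cdh1 (not separated from B16F10 luc2), than in the other lines. Of 12 such genes 10 were tested. Between D4M and HCmel12, 9 were higher in D4M and 1 was lower, where 36.8% of all genes tested were higher and 35.7% lower. Against B16F10 luc2 the same counts were 9 and 1, against WT31 8 and 1, and against RET 8 and 2, where 38.9%, 38.6% and 38.3% of all genes tested were higher in D4M. Snai1, which encodes Snail, was at 19.3 ± 4.22 CPM in D4M and 0.968 ± 0.277 CPM in HCmel12, and at most 0.141 CPM as a mean of the other lines. Of these genes it alone was lower in all 6 contrasts of HIM-melanoma with LM-melanoma, as were 6.4% of all genes tested. Snai1 was higher in HCmel12, the line with the most Cdh1, than in WT31 (limma, adjusted p = 7.7e-06), where no library had more than 3 counts. Zeb1 and Twist1, named after their values were seen, were at 107 ± 7.58 and 79.1 ± 11.7 CPM in D4M and at most 1.05 and 0.289 CPM as a mean of any other line. Zeb2, also named after its values were seen, was lowest in D4M (99.8 ± 9.99 CPM) and highest in WT31 (296 ± 40.5 CPM). Of 12 factors of the epithelial state 5 were tested, none with a common direction, and the highest, Klf4, was at 101 ± 13.3 CPM in D4M and between 2.26 and 13.2 CPM elsewhere. Klf5 was at 17.2 ± 1.32 CPM in D4M and at most 1.27 CPM elsewhere. Foxa1 and Grhl2, named after their values were seen, were highest in HCmel12, at 9.01 ± 0.97 and 1.07 ± 0.627 CPM, against 0.00852 ± 0.019 and 0.283 ± 0.122 CPM in D4M. Between D4M and HCmel12, 2 of the 5 were higher in D4M and 2 lower, where 36.8% and 35.7% of all genes tested were. The part of the repressors and of the factors of the epithelial state in the Cdh1 levels was not tested.

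Among 9 tested genes of proteases that cleave cadherins and of their turnover, Adam15 and Ncstn were lower in all 6 contrasts of HIM-melanoma with LM-melanoma, as were 6.4% of all genes tested. With log2(TPM + 1) this count was 1. Adam15, a metalloprotease of the ADAM family, was at 150 ± 21.8 CPM in D4M and 92.7 ± 8.87 in HCmel12, against a line mean between 40.1 and 46.8 CPM in HIM-melanoma. Ncstn, a subunit of γ-secretase, was at 89.4 to 136 CPM as a line mean of HIM-melanoma, against 221 ± 17.9 CPM in D4M and 163 ± 5.85 CPM in HCmel12. Neither call held with a limit of at least 1 on the absolute log2 fold change. Adam10, the main sheddase of E- and N-cadherin, named after its values were seen, was highest in D4M (385 ± 16.96 CPM), followed by HCmel12 (293 ± 7.48 CPM) and WT31 (286 ± 28.1 CPM), and lower in RET (139 ± 23.6 CPM) and B16F10 luc2 (129 ± 10.2 CPM), without a common direction. Of 16 tested protocadherin, Fat, Dachsous and Celsr genes, 3 were lower in HIM-melanoma in all 6 contrasts and 0 higher, where 6.4% and 6.53% of all genes tested were. The count of 3 was 1 with log2(TPM + 1), 2 with a fold limit, with library size only or with fits of 2 lines, and 4 with a replicate block. Pcdh1 was at 165 ± 9.45 CPM in D4M and 64.8 ± 8.63 CPM in HCmel12, against 18.4 ± 8.55 CPM in WT31, which was the highest line of HIM-melanoma. Pcdh18 and Pcdh20 were at 23.8 ± 10.2 and 18.4 ± 8.15 CPM in D4M and at 5.34 ± 1.31 and 0.687 ± 0.524 CPM in HCmel12. Both had 0 counts in B16F10 luc2 and RET. Pcdh18 was at 3.21 ± 1.25 CPM in WT31, and its difference from HCmel12 was close to the threshold (limma, adjusted p = 0.044).

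The genes whose log2 CPM followed each tested cadherin most closely over the 25 libraries were listed by Pearson's r, which mainly reflects the 5 line means since libraries of one line share their origin. Cdh1 was followed by Prss12 (0.950), Cyp4a10 (0.946) and Ube2h (0.940), and Cdh2 by Aida (0.987), Erlin1 (0.973) and Sdc4 (0.961). Prss12 was at 88.1 CPM in HCmel12 and at most 20.6 CPM as a mean elsewhere, and Aida was at 174 CPM in D4M and between 54.2 and 91.5 CPM elsewhere. For Cdh3 they were Erich2 (0.978), Gm31520 (0.977) and 2700046A07Rik (0.977), and for Cdh11 Neurog2 (0.993), Ankrd34b (0.990) and Defb41 (0.982), which like these members were found in WT31. Cdh6 was followed by Sox13 (0.971), Ltbp1 (0.970) and Glud1 (0.965). Cdh13 was followed by Gm10544 (0.973), Svil (0.971) and Lrrc42 (0.965), and Cdh15 by Tars (0.913), Ifi203 (0.913) and Trim30d (0.903). Gm10544 had 0 counts in B16F10 luc2 and, like Cdh13, was highest in RET, D4M and HCmel12. Cdh19 was followed by Car14 (0.990) and Palm2 (0.986), and Car14, like Cdh19, was highest in RET (250 CPM) and HCmel12 (197 CPM) and lowest in D4M (0.212 CPM). Among pairs of tested members, Cdh2 and Cdh13 (0.798) and Cdh1 and Cdh19 (0.667) followed Cdh3 and Cdh11 in the order of r, and the most negative value was that of Cdh15 and Cdh19 (-0.791).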

How the data were processed

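RNA of 25 cultures, 5 per line, was sequenced (HiSeq 4000 in the design text, BGISeq-500 protocols in the labels). Per the labels and the study's methods, the authors trimmed reads with Trim Galore (0.6.4), assigned them to GRCm38.p6 with kallisto (version 0.4.6 in the submitters' processing notes, another version in the study's methods) and deposited estimated counts per gene without normalization. Kallisto divides reads that match several transcripts. The authors also deposited TPM, scaled by transcript length to 1000000 per library. TPM were used for 24 libraries; for D4M replicate 1 only estimated counts were at hand, so its TPM are not analysed here, which is no choice by its values. The annotation release, the step from transcripts to genes and strandedness are not given in the sources used here.

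Symbols and positions came from GENCODE vM21. Estimated counts were filtered with filterByExpr (edgeR 4.0.16), scaled with TMM factors and fitted with voom and limma (3.58.1, R 4.3.3), with one mean per line over all 25 libraries. P-values were adjusted per comparison over 15247 genes (Benjamini-Hochberg, threshold 0.05). Where no library of a line had more than 3 counts, 3 counts per library stood in for it and the fold is a lower bound. The ratio of Cdh2 to Cdh1 used counts plus 0.5. Totals between 24199083 and 25843286 counts set the precision. The procedure was tested on simulated data. As alternatives, edgeR's quasi-likelihood test and DESeq2 (1.42.0) on rounded counts, library size only, no filter, log2(TPM + 1), a replicate block, a fold limit, fits of 2 lines and leaving out each library were run.

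The members and lists were chosen with earlier results of these data known. All 10 members were named; of each list, commonly regulated genes (at most 4), otherwise the 2 most abundant; and for each tested member the 3 most correlated genes, of which 1 is not reported here, nor is 1 allele of the lines. Other genes of the lists that the text names, Sox10 and the remaining markers included, were chosen after their values were seen.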

Additional observations from a re-analysis of the deposited data

Results flagged for a closer look

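Among 31 groups of 5 libraries (one cadherin in one line, groups at or under 3 counts left out), 7 libraries stood so far above the other 4 of their group that the gap was over 0.71 of the range of the group. All 7 were the highest of their group. Chance flags about 1 in 20 groups where values are roughly normal, a share that cannot be applied to groups near 0 counts such as Cdh5 in WT31. HCmel12 replicate 4 was set apart for 2 members: Cdh1 was at 15.2 CPM against 3.81 to 6.94 CPM in the other cultures, and Cdh13 at 137 CPM against 80.9 to 94.8 CPM. In the same library Cdh2 (193 CPM) and Cdh6 (1.05 CPM) were the lowest of their line. WT31 replicate 1 was set apart for Cdh19, at 73.1 CPM against 35.7 to 44.7 CPM, and for Cdh5, at 0.190 CPM (5 counts) against 0 in the other cultures. WT31 replicate 5 was set apart for Cdh3, at 27.0 CPM against 13.3 to 16.6 CPM. In D4M, replicate 5 was set apart for Cdh2, at 415 CPM against 348 to 366 CPM, and replicate 1 for Cdh1, at 0.342 CPM (7.43 counts) against 0.0444 to 0.128 CPM. Without HCmel12 replicate 4, the calls of Cdh1, Cdh2, Cdh6, Cdh13 and Cdh19 against HCmel12 kept their direction and their side of the threshold in all 20 pairs.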

How the results depend on the processing

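The number of cadherins called kept within 1.5 times in all pairs and alternatives except with log2(TPM + 1), which called 5 for WT31 against RET and 2 for B16F10 luc2 against RET. With a limit of 1 on the absolute log2 fold change, 1 cadherin was commonly lower. The Cdh6 difference of B16F10 luc2 from RET was 0.309 without B16F10 luc2 replicate 3 (lowest -0.989, highest 0.309 over the libraries left out). The ratio of Cdh2 to Cdh1, WT31 against RET, was 0.685 with a pseudocount of 3 counts (adjusted exact permutation p = 0.0529), and ranged from 0.65 to 1.045 over the libraries left out. Of the other results for a member in a pair, 15 lost and 3 gained a call under at least 1 alternative with every library kept. Their direction was the same, and pairs in which both lines had at most 3 counts in every library were left out. Some were lost only with the fold limit, which by its rule removes any absolute log2 fold change under 1. For Cdh2 these were HCmel12 against each other line and RET against D4M. For Cdh13 it was D4M against HCmel12, and for Cdh19 WT31 against B16F10 luc2 and against HCmel12. For the others the cause was not tested. Scaling by library size only moved the median log2 fold change of all genes by 0.15 to 0.23 in the comparisons with D4M, in size, and gave no cadherin another direction. Called genes over the whole table fell to between 0.277 and 0.512 of the main number with a fold limit. The replicate numbers only name the samples: of 50 pairs of libraries with one number, correlations of deviations lay between -0.091 and 0.104, and 6 of 25 libraries correlated best with their own number. With the replicate block, the called cadherins went from 5 to 7 for B16F10 luc2 against D4M and from 4 to 5 for B16F10 luc2 against RET (Cdh11 and Cdh3, in pairs at or under 3 counts, among them), and Cdh1 in B16F10 luc2 against D4M passed, at 1.367 (limma, adjusted p = 0.0067). The detection limit of 3 counts, which came to 0.111 to 0.138 CPM at this depth, was a setting, and lower counts were still recorded.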
